A study of Laccaria bicolor with 18 samples.

Results

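Of 23130 gene models of the ectomycorrhizal fungus *Laccaria bicolor*, 58 had a low transcript level in late basidiocarps (mushrooms) in both caps and stipes. They were chosen on the mean of the 3 libraries of each group, in RPKM (reads per kilobase of transcript, scaled to the library size). The early cap mean was at least 3 times the late cap mean, the early stipe mean at least 3 times the late stipe mean, the late means of both tissues lay within 2.5-fold of each other, and both early means were at least 10 RPKM. A further 2 gene models are left out by name in the choice, but neither meets the other conditions. The falls from early to late, and the likeness of late caps and late stipes, are therefore what the gene models were chosen for, and they are given here as a description with no test.

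Basidiocarps of strain S238N were collected from a nursery bed of inoculated Douglas fir seedlings, sorted into early, medium and late stages and separated into cap and stipe. Each of the 6 groups has 3 libraries, labelled as biological replicates, 18 libraries in all. The paper's methods also name 3 replicates, but its legend for the clustering of these stages gives fewer than 18 biological replicates. The reason for this difference is not given. No gene was altered and no treatment was given, so the groups differ in tissue and stage only, as far as the labels say. Whole caps and whole stipes were extracted, each a mixture of tissues, and the stages are not given as days.

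As a basidiocarp matures, the stipe lengthens, the cap expands, and the gills beneath the cap carry the basidia in which nuclei fuse, pass through meiosis and are packed into spores. Basidiomycetes also encode small mating pheromones, lipopeptides that are recognised by receptors of the STE3 type. In fungi such as yeast and *Ustilago maydis*, the pheromone precursor receives a farnesyl group made by the isoprenoid pathway, is clipped, and is methylated at its last cysteine.

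The counts of a library summed to between 38976106 and 90888294 reads, and all 58 passed the filter on low counts, which kept 16485 gene models for the tests. The lowest count of a member in any library was 5 reads (prot ID 291926). Medium stipe 3 stood apart from the other medium stipes: the chi-square of the counts per degree of freedom was 981 against medium stipe 1 and 1016 against medium stipe 2. Medium stipes 1 and 2 differed by 8.17 on this measure, where the 16 pairs of replicates other than the 2 most alike gave 45.9 to 1016. Late caps 2 and 3, the other near-alike pair, differed by 14.0. Both pairs differed beyond sampling noise, which does not show that their libraries come from separate samples. They were kept as separate libraries, as labelled, and whether they come from separate mushrooms was not tested. No list of marker genes for cap or stipe cells was at hand, so that the tissue labels were not checked against markers. Of 11 gene models listed for meiosis, which gills would hold, 2 were called higher in late than in early caps, and 1 was called higher and 2 lower in late than in early stipes. These counts are small and were not tested. In whole tissues, fewer cells of a kind and less RNA per cell cannot be told apart.

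The early means of the 58 gene models ranged from 11.9 to 3716 RPKM in caps, with a median of 128, and from 13.8 to 1366 RPKM in stipes, with a median of 107. Late means had a median of 15.7 RPKM in caps and 14.8 RPKM in stipes. The early to late ratio of the means had a median of 4.63 in caps (3.07 to 62.0) and of 5.19 in stipes (3.03 to 65.2). In caps, every early library lay above every late library for all 58. In stipes this held for 56, and the 2 exceptions, prot IDs 488730 and 382456, are described below with the values of each library. The choice on early and late means favours such a separation. Its share over all gene models was not computed, and nothing is read from these counts. All 58 were called lower in late than in early caps, where 6.12% of the gene models tested were, and all 58 in stipes, where 11.7% were. A call was a log2 fold change above 1 in size with a Benjamini-Hochberg adjusted p under 0.05 in edgeR's quasi-likelihood test. As the choice used these libraries, nothing is read from either count. Over all gene models tested, 9.27% were called higher in late than in early caps, 7.63% higher in late than in early stipes, and 2.41% lower in both tissues. The members are 0.352% of the gene models tested.

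Some gene models lay close to a limit of the choice. The early to late ratio in caps was 3.07 for prot ID 687124 and 3.08 for 455116, just inside, and 2.98 for both 633587 and 693899, just outside. In stipes it was 3.03 for 332497 and 3.05 for 331724, against 2.98 for 629022 and 2.97 for 458172. The ratio of the late means was 2.36 for both 632577 and 668035, against 2.67 for 667150 outside and 2.64 for 1 of the 2 gene models left out by name. The lower of both early means was 11.9 RPKM for 453546 and 12.2 RPKM for 382456, against 9.85 RPKM for 324099 and 9.28 RPKM for 312942 outside. Over all gene models tested, RPKM had a median log2 difference of -0.21 between late and early caps, where counts scaled by edgeR's TMM method had -0.05. For medium against early caps the medians were -0.15 and 0.02, and for early caps against early stipes 0.13 and 0.02. With TMM-scaled values per kilobase in place of RPKM, 48 gene models met the conditions, all of them among the 58.

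**Figure D1:**
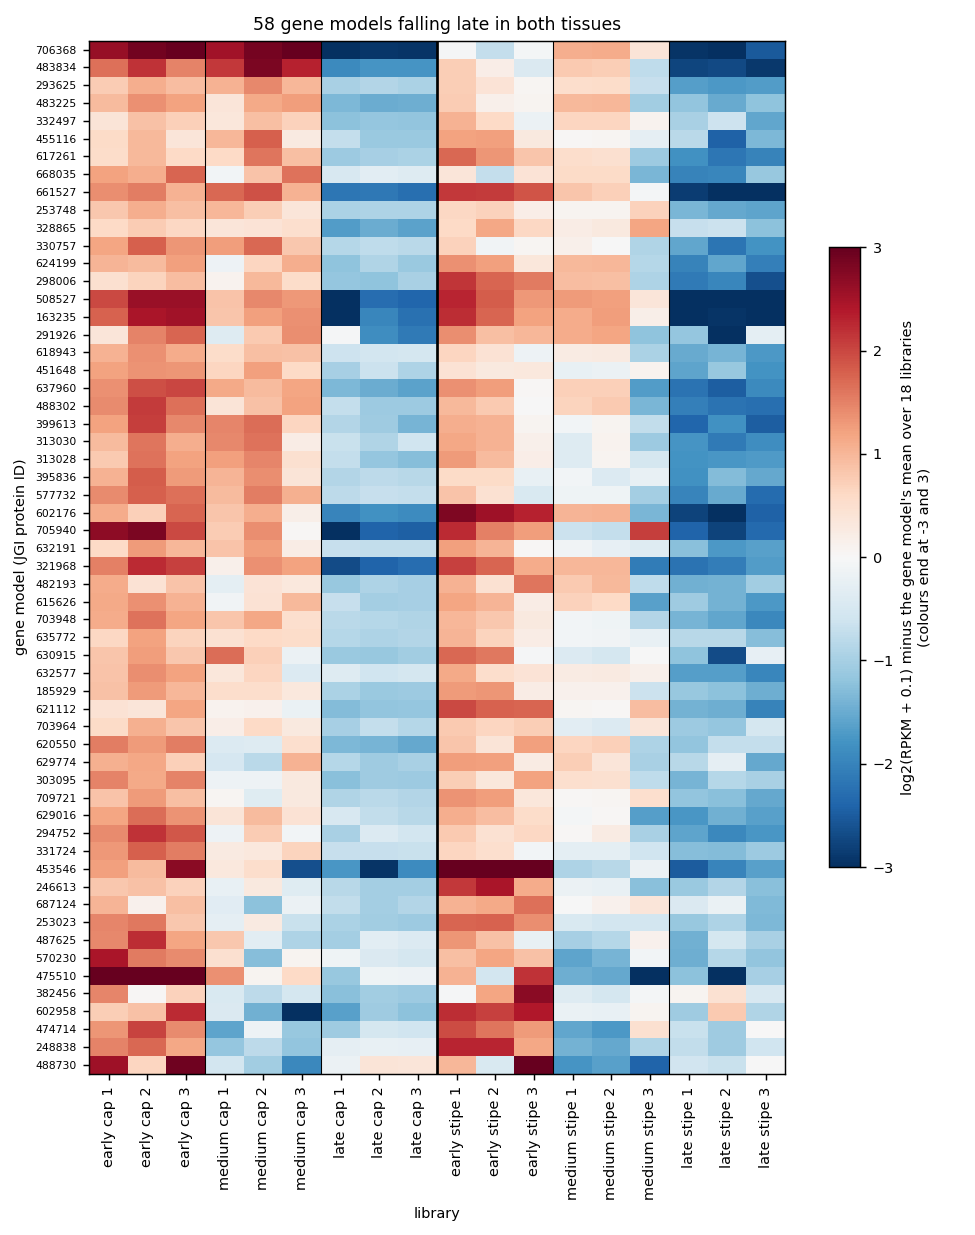
Transcript levels of the 58 gene models (rows, by prot ID) in 18 libraries (columns), as log2(RPKM + 0.1) minus the mean of the gene model over all libraries, with colours ending at -3 and 3. Rows are ordered by where the medium means lie between early and late, from near early (top) to near late (bottom): most rows stay red or pale in medium libraries and turn blue in late ones, while the 8 gene models with prot IDs such as 488730 and 248838 at the bottom are already low in medium libraries.

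The stage at which transcripts fell was not part of the choice, since medium libraries were not used in it. The place of the medium mean between the late mean (0) and the early mean (1) was computed for each gene model on log2(RPKM + 0.1). The median was 0.76 in caps and 0.66 in stipes, so that a typical gene model was nearer to its early than to its late level at the medium stage. In caps 35 gene models lay near early (above 0.667), 14 between and 9 near late (below 0.333). In stipes 28 lay near early, 18 between and 12 near late. A total of 22 lay near early in both tissues and 8 near late in both. Since early and late means enter this measure, no test was made on it.

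Single medium libraries differed in this respect. The median place over the 58 was 0.65, 0.78 and 0.67 in medium caps 1, 2 and 3, and 0.71, 0.72 and 0.36 in medium stipes 1, 2 and 3. Medium stipe 3 was thus nearer to late stipes for these gene models than both other medium stipes. The median log2 difference of the members between a medium stipe library and the early stipe mean was -0.77, -0.75 and -1.52. Over all gene models tested the same differences were -0.06, -0.06 and -0.04. Prot ID 637960 gave 1129, 1128 and 215 RPKM in the 3 medium stipes and 321968 gave 71.8, 71.8 and 8.34 RPKM. In the opposite direction, the secreted protein 705940 gave 22.7, 21.5 and 149.9 RPKM, with medium stipe 3 the highest. Without medium stipe 3 the median place in stipes was 0.71.

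**Figure D2:**
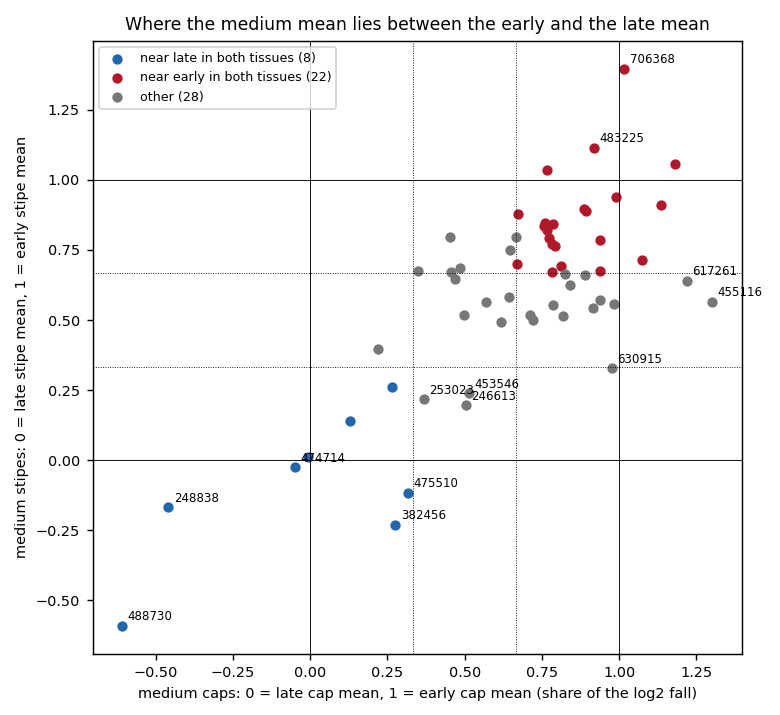
Each point is one of the 58 gene models, placed by its medium cap mean (horizontal axis) and its medium stipe mean (vertical axis) as a share of the log2 fall from the early mean (1) to the late mean (0) of that tissue. Dotted lines mark 0.333 and 0.667: the 22 red points lie near early in both tissues and the 8 blue points near late in both, with prot ID 488730 the lowest on both axes.

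From early to medium, 10 of the 58 were called lower in caps, where 0.952% of all gene models tested were, and 18 in stipes, where 1.6% were. From medium to late, 42 were called lower in caps (5.81% of all gene models tested) and 40 in stipes (9.39%). The median log2 fold change of the members was -0.46 from early to medium caps and -1.69 from medium to late caps. In stipes it was -0.81 and -1.55. These comparisons share early or late libraries with the choice and are given without p-values. The counts for early to medium rest on single libraries: in caps 2 gene models were called when early cap 3 was left out, 4 when medium cap 2 was, and 5 when either early cap 1 or medium cap 1 was. In stipes 8 were called without early stipe 1 and 9 without any one of early stipe 2, medium stipe 1 or medium stipe 2. Fewer still were called in stipes with the near-alike libraries summed, as given at the end.

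The 8 gene models whose medium means lay near late in both tissues include 3 with an annotation. Their median ratio of the early to the medium mean was 5.59 in caps and 4.87 in stipes. Prot ID 475510, for which no annotation was at hand, had the highest early cap mean of all 58, while 637960 had the highest early stipe mean. It gave 3030.3, 3405 and 4714 RPKM in early caps, 965, 393 and 560.4 in medium caps and 168, 342 and 337 in late caps. In stipes it gave 766, 254 and 1679 RPKM in early stipes, 134, 128 and 27.7 in medium stipes and 159, 20.7 and 187 in late stipes. Every early cap library was above every other cap library, and medium caps lay above late caps, while medium and late stipes overlapped. The ratio of early to medium means was 5.81 in caps and 9.31 in stipes.

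Prot ID 488730, also without annotation, gave 486, 132 and 633 RPKM in early caps, 56.8, 40.7 and 21.99 in medium caps and 73.7, 109.9 and 107 in late caps. Stipes gave 167, 60.9 and 892 RPKM in early stipes, 24.7, 27.2 and 15.7 in medium stipes and 55.9, 53.1 and 83.03 in late stipes. Medium libraries of both tissues were lower than the late ones without overlap, so that its level was lowest at the medium stage. Replicates of the early stage were far apart, and early stipe 2 lay within the range of late stipes. Prot ID 382456, annotated with amine oxidase activity, was the other gene model with such an overlap. It gave 6.55, 15.2 and 44.2 RPKM in early stipes and 7.03, 9.22 and 4.73 RPKM in late stipes, with early stipe 3 far above all others. In early caps it gave 18.7, 6.88 and 10.9 RPKM, all above late caps at 2.73, 3.18 and 3.098 RPKM.

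Prot ID 474714 carries the alpha-crystallin domain of small heat shock proteins (Hsp20), chaperones that hold unfolded proteins in solution. It gave 229.6, 371 and 244 RPKM in early caps, 30.5, 81.2 and 41.6 in medium caps and 43.3, 62.9 and 59.7 in late caps. The stipe libraries gave 352, 277 and 222 RPKM in early stipes, 30.9, 27.3 and 126 in medium stipes and 57.1, 43.03 and 91.04 in late stipes. Early libraries of both tissues were above all others, and medium and late libraries overlapped, with medium stipe 3 above the other medium stipes. Of 6 gene models annotated with Hsp20 at hand, only 474714 was called lower in late than in early samples of both tissues. Over all gene models tested 2.41% were. As a member, 474714 was chosen for this fall, and nothing is read from this count. In medium stipe 3, 5 of the 6 were above both other medium stipes. Prot ID 675074 gave 5.38, 5.81 and 477 RPKM in medium stipes, 706828 gave 2.44, 2.62 and 459 RPKM, 443613 gave 15.8, 15.9 and 389.7 RPKM and 384818 gave 101, 100.5 and 692 RPKM. The sixth, 324106, gave 19.5, 20.1 and 9.97 RPKM, lowest in medium stipe 3. The part of this state of medium stipe 3 in the values of the members was not tested.

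Prot ID 248838 is annotated as a D-arabinono-1,4-lactone oxidase, in yeast the last enzyme of the synthesis of erythroascorbate, a relative of vitamin C. It gave 205, 238 and 162 RPKM in early caps, 32.4, 42.2 and 32.1 in medium caps and 60.3, 62.4 and 61.6 in late caps. Its levels in stipes were 355, 353 and 161 RPKM in early stipes, 27.2, 25.04 and 38.5 in medium stipes and 43.2, 34.6 and 47.9 in late stipes. All medium caps were below all late caps, whereas medium and late stipes overlapped. The early mean was 5.67 times the medium mean in caps and 9.58 times in stipes.

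The remaining members of this group, prot IDs 487625, 570230 and 602958, had lower levels and no annotation at hand. Prot ID 602958 gave 9.19, 10.1 and 26.3 RPKM in early caps, 3.98, 1.95 and 0.485 in medium caps and 1.69, 2.57 and 2.26 in late caps. The levels in stipes were 25.8, 22.8 and 29.3 RPKM in early stipes, 4.76, 4.64 and 5.81 in medium stipes and 2.57, 9.495 and 2.85 in late stipes. Early libraries lay above all medium and late ones in both tissues. Early means of 487625 and 570230 were between 2.43 and 3.91 times the medium means in the 2 tissues.

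**Figure D3:**
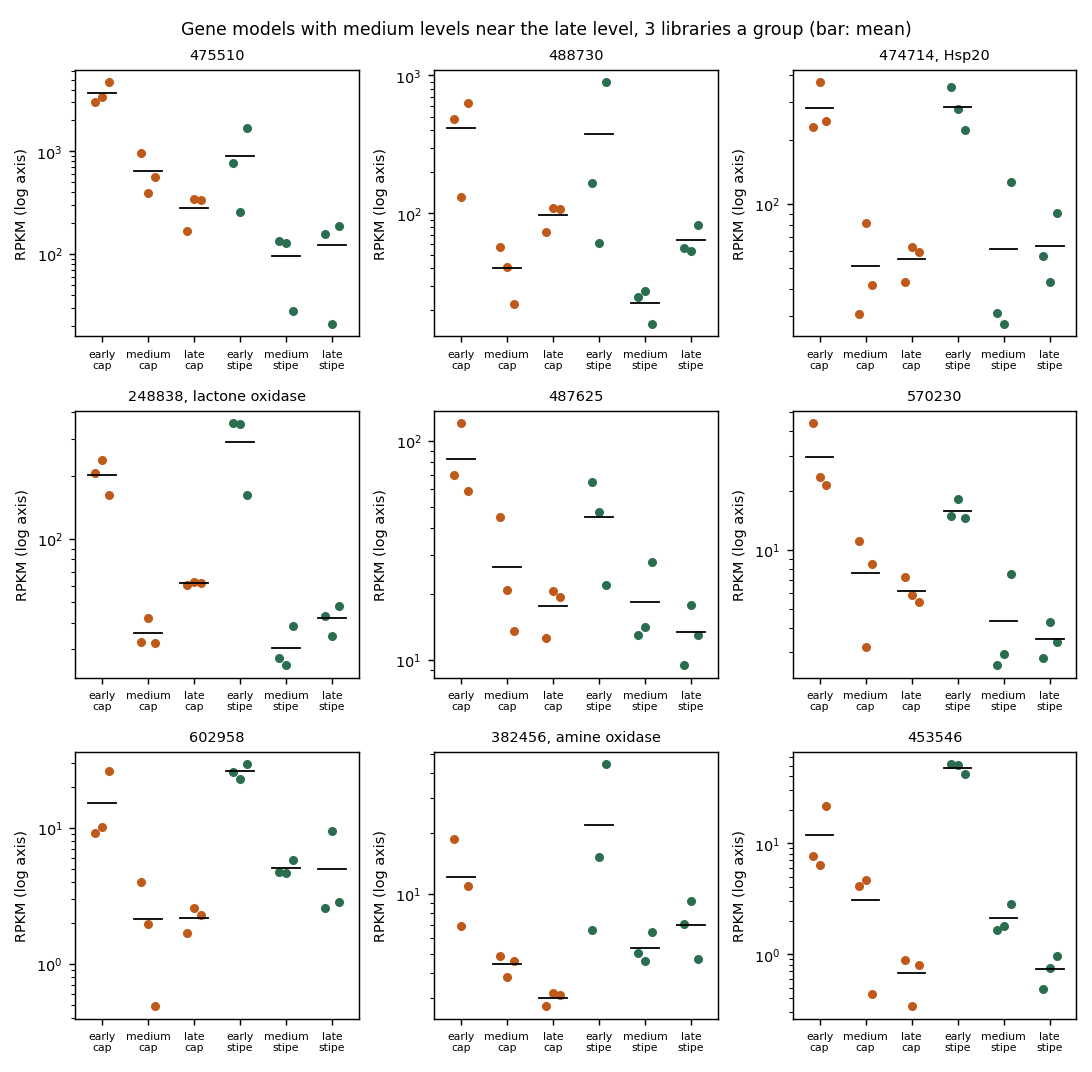
RPKM (log axis) of the 8 gene models whose medium means lay near late in both tissues and, in the last panel, of prot ID 453546, which had the largest early to late ratio in stipes. Points are libraries, orange for caps and green for stipes, and bars are means of 3: the early groups are highest in each panel. Medium means are lower than late means in both tissues for 488730, 248838 and, by a smaller margin, 474714. They are lower in stipes only for 475510 and 382456, and in caps only, narrowly, for 602958.

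A further 3 gene models lay near late in medium stipes but between in medium caps. The one without annotation, prot ID 453546, gave 51.4, 50.5 and 42.2 RPKM in early stipes, against 1.66, 1.78 and 2.86 in medium and 0.489, 0.748 and 0.973 in late stipes. In caps it gave 7.73, 6.35 and 21.7 RPKM in early caps, 4.09, 4.69 and 0.4402 in medium caps and 0.8899, 0.338 and 0.798 in late caps. Its early mean was 4.02 times as high in stipes as in caps, and the early to late ratio in stipes, 65.2, was the largest of the 58. Medium cap 3 lay within late caps, far below the other medium caps. The other 2, 246613 and 253023, take part in isoprenoid synthesis and prenylation.

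Prot ID 246613 encodes a phosphomevalonate kinase, an enzyme of the mevalonate pathway, from which sterols and the prenyl groups of proteins are made. It gave 278, 294 and 258 RPKM in early caps, 136, 196 and 124 in medium caps and 90.1, 79.4 and 78.8 in late caps. In stipes it gave 691, 878 and 348 RPKM in early stipes, 141, 137 and 67.2 in medium stipes and 73.6, 86.2 and 67.3 in late stipes. Early stipes were above early caps in each library, and the early mean was 5.56 times the medium mean in stipes and 1.82 times in caps. Prot ID 253023, singled out after its values were seen, encodes the alpha subunit of a protein prenyltransferase, which attaches the prenyl group to a cysteine near the end of a protein. It gave 103, 111 and 65.997 RPKM in early caps, 31.2, 44.95 and 23.6 in medium caps and 19.3, 17.98 and 17.4 in late caps. Stipes gave 126, 128 and 97.7 RPKM in early stipes, 27.1, 25.5 and 25.3 in medium stipes and 16.8, 19.7 and 14.7 in late stipes. Early libraries lay above all medium ones and these above all late ones in both tissues. Another gene model annotated with protein prenyltransferase activity, 473614, was just outside the choice with an early to late ratio of 2.91 in caps and 3.96 in stipes.

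Prot ID 632191 encodes a polyprenyl synthetase, a member of the family that joins isoprene units into chains. It gave 214, 344 and 281 RPKM in early caps, 254, 338 and 166 in medium caps and 87.4, 83.97 and 84.9 in late caps. The stipe libraries gave 332, 286 and 144 RPKM in early stipes, 131, 119.5 and 108 in medium stipes and 59.1, 42.4 and 45.6 in late stipes. Early and medium caps overlapped, whereas all early stipes lay above all medium stipes and these above all late stipes.

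An isoprenylcysteine carboxyl methyltransferase, the enzyme that methylates the prenylated cysteine in yeast, is encoded by prot ID 483834, as far as the InterPro annotation goes. It gave 236, 337 and 209 RPKM in early caps, 325, 532 and 369 in medium caps and 20.01, 21.9 and 21.9 in late caps. Its levels in stipes were 125, 85.4 and 55.3 RPKM in early stipes, 129.8, 126 and 43.98 in medium stipes and 11.04, 11.3 and 10.02 in late stipes. The medium level was as high as the early one or higher in caps, and the fall from medium to late was 19.2-fold in caps and 9.25-fold in stipes, with no overlap. A gene model of the same annotation, 609250, is not a member. It fell 46.7-fold from early to late stipes, but its ratio in caps was 1.69.

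Both mating pheromone genes with a RefSeq symbol, Lbphb (prot ID 313028, singled out after its values were seen) and Lbphb2 (313030), are members. Lbphb gave 35.9, 64.7 and 47.7 RPKM in early caps, 48.6, 56.97 and 29.1 in medium caps and 12.6, 9.18 and 8.51 in late caps. The levels in stipes were 50.4, 39.8 and 24.02 RPKM in early stipes, 15.96, 21.99 and 14.4 in medium stipes and 5.96, 6.095 and 6.29 in late stipes. Its medium caps overlapped early caps, and all medium stipes lay below all early stipes. Lbphb2 gave 23.5, 36.9 and 26.002 RPKM in early caps, 32.8, 37.3 and 14.2 in medium caps and 7.61, 6.403 and 7.95 in late caps. In stipes it gave 27.2, 24.97 and 13.4 RPKM in early stipes, 9.197, 13.1 and 5.602 in medium stipes and 3.48, 2.72 and 3.22 in late stipes. Late libraries were the lowest in both tissues, and medium cap 3 and early stipe 3 were the lowest of their groups.

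In the order of genes of the RefSeq table (assembly V1.0), prot ID 395836 directly precedes Lbphb, and the receptor gene Lbrcb3 (192000) lies between Lbphb and Lbphb2. Prot ID 395836, without annotation at hand and singled out for its place, is a member. It gave 23.9, 40.7 and 27.9 RPKM in early caps, 23.6, 30.4 and 15.01 in medium caps and 6.18, 6.67 and 6.48 in late caps, and in stipes 17.2, 17.3 and 9.84 RPKM in early stipes, 10.97, 8.68 and 9.91 in medium stipes and 3.18, 4.64 and 3.900 in late stipes. Lbrcb3 is not. It gave 25.8, 32.2 and 25.03 RPKM in early caps, 19.2, 21.6 and 16.5 in medium caps and 15.1, 13.03 and 12.9 in late caps, and in stipes 24.3, 24.6 and 13.1 RPKM in early stipes, 16.8, 14.9 and 13.3 in medium stipes and 16.3, 19.4 and 19.2 in late stipes. The early to late ratio of Lbrcb3 was 2.02 in caps and 1.13 in stipes, and its late and medium stipes overlapped. Reads were allowed several hits in mapping, and whether these small genes share reads with copies was not tested.

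By words in the annotations at hand, 17 gene models belong to pheromones and pheromone receptors, of which 16 were tested. Of these, 3 were called lower in late than in early caps, and 4 lower and 2 higher in stipes. Besides Lbphb and Lbphb2, a receptor of the STE3 type, 632625, was called lower in both tissues. The 2 called higher in late stipes were 600888, annotated as a mating-type pheromone, and 145491, annotated as a STE3 receptor. Other gene models annotated as pheromones are not members. Of these, 399545 was called lower in stipes only. Prot IDs 399537 (early to late ratios of 1.01 in caps and 0.76 in stipes) and 399542 (0.74 and 0.76) were called in neither tissue. For isoprenoid synthesis and prenylation, 25 gene models were listed and tested: 8 were called lower in late than in early caps, and 12 lower and 3 higher in stipes. Lower in both tissues were 7 of the 25, among them 4 members. Matching by words also took in gene models annotated with other functions, such as 399442 with DNA methylation and 610962 with DNA repair. Prot ID 610962 is among the 3 called higher in late stipes. The others are 484390 (log2 fold change of 1.69) and 468421 (1.52), both annotated with terpene synthase. Over all gene models tested, 6.12% were called lower in caps, 11.7% lower and 7.63% higher in stipes, and 2.41% lower in both. Both lists were made after values were seen, and they hold members chosen for their fall, so that nothing particular to the lists is read from these counts.

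**Figure D4:**
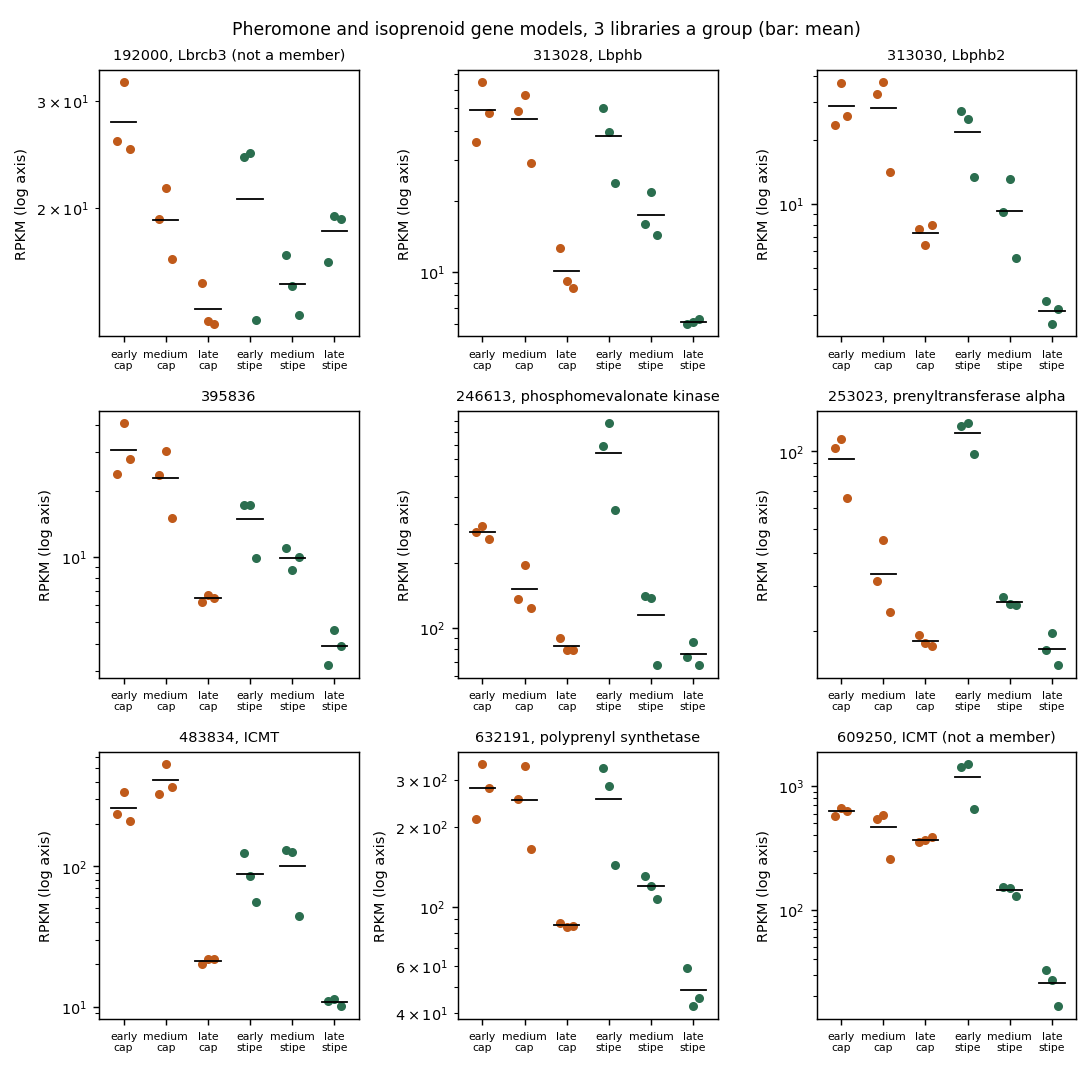
RPKM (log axis) of the pheromone genes Lbphb and Lbphb2, the receptor gene Lbrcb3 between them, the neighbouring gene model 395836, and gene models of isoprenoid synthesis and prenylation (ICMT, isoprenylcysteine carboxyl methyltransferase). Points are libraries, orange for caps and green for stipes, and bars are means of 3: late means are the lowest of each tissue in every panel except that of Lbrcb3 in stipes.

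The 22 gene models whose medium means lay near early in both tissues had to fall from medium to late, as the choice sets the late level. Their median ratio of the medium to the late mean was 3.84 in caps and 3.80 in stipes. The largest early to late ratio in caps was that of prot ID 706368, without annotation at hand. It gave 1302, 1593 and 1775 RPKM in early caps, 1225, 1565 and 2204 in medium caps and 19.1, 28.4 and 27.8 in late caps. Stipes gave 208, 130.3 and 206 RPKM in early stipes, 453, 459 and 278 in medium stipes and 27.7, 11.1 and 37.02 in late stipes. Early and medium caps overlapped, while all medium stipes were above all early stipes, and late libraries of both tissues were at a like low level. The early to late ratio was 61.99 in caps and 7.18 in stipes, and from medium to late the level fell 66.3-fold and 15.7-fold.

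Prot ID 508527 carries a WSC domain, a carbohydrate-binding domain known from sensors of the cell wall in yeast, and had the largest fall when the smaller ratio of both tissues is taken. It gave 261, 397 and 399.7 RPKM in early caps, 121, 179 and 164 in medium caps and 8.05, 13.5 and 12.7 in late caps. The stipe libraries gave 326, 234 and 164 RPKM in early stipes, 159.7, 155 and 85.4 in medium stipes and 4.78, 6.58 and 3.44 in late stipes. The 3 stages did not overlap in caps, with medium between early and late, and in stipes late libraries lay far below the others. Ratios of early to late were 30.9 and 48.9. Prot ID 163235, with an HPP domain, came next by this order. Its ratios were 25.2 in caps and 37.2 in stipes. It gave 3.76, 8.19 and 6.66 RPKM in late caps and 3.54, 4.05 and 1.29 RPKM in late stipes, against 57.3, 74.97 and 83.4 and 69.7, 76.2 and 36.2 RPKM in the medium groups.

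Of 3 members listed as small secreted proteins, 661527 and 705940 were among the 6 that lead when members are ordered by the smaller early to late ratio of both tissues. Prot ID 661527, which also has a carbohydrate-binding module of family CBM52, gave 28.995, 31.6 and 22.6 RPKM in early caps, 36.3, 41.1 and 22.7 in medium caps and 2.34, 2.37 and 2.18 in late caps. Its levels in stipes were 48.1, 46.95 and 40.7 RPKM in early stipes, 19.4, 18.1 and 10.4 in medium stipes and 1.42, 0.9795 and 0.9103 in late stipes. Medium caps were level with early caps, and medium stipes were below early stipes without overlap. Prot ID 705940 gave 229, 252 and 141 RPKM in early caps, 59.7, 92.3 and 36.3 in medium caps and 4.22, 6.64 and 6.34 in late caps. The levels in stipes were 166, 101 and 84.4 RPKM in early stipes, 22.7, 21.5 and 149.9 in medium stipes and 6.58, 5.04 and 6.95 in late stipes. All medium caps were below all early caps, and medium stipe 3 stood out above both other medium stipes. The third, 330757, gave 865, 1302 and 939 RPKM in early caps, 907, 1254 and 661 in medium caps and 209.7, 223 and 216 in late caps, with stipes at 609, 354 and 393, 417, 372 and 204 and 128, 82.2 and 109 RPKM in the order of the stages. Of 237 small secreted proteins tested, 21 were called lower and 63 higher in late than in early caps, and 52 lower and 43 higher in stipes. Lower in both tissues were 6.33% of them, where 2.41% of all gene models tested were. Lists hold annotated gene models only (3397 of all 23130, against 27 of the 58 members), so that these shares rest on unlike bases.

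Prot ID 321968, with no annotation at hand, was another of these 6. It gave 102, 171 and 149.6 RPKM in early caps, 40.2, 93.3 and 82.5 in medium caps and 5.49, 6.67 and 7.25 in late caps. In stipes it gave 149, 122 and 78.1 RPKM in early stipes, 71.8, 71.8 and 8.34 in medium stipes and 7.64, 8.45 and 11.2 in late stipes. Medium stipe 3 lay within the range of late stipes, and both other medium stipes lay far above it.

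Oxidoreductases and cytochrome P450 made up the largest list among the members, with 7 of 310 tested (2.26%, where 0.352% of all gene models tested are members). Members were annotated more often (27 of 58) than all gene models (3397 of 23130), so that nothing particular to the list is read from this share. In late caps 30 of the 310 were called lower and 40 higher than in early caps, and in late stipes 70 lower and 39 higher than in early stipes. Lower in both tissues were 5.16%, where 2.41% of all gene models tested were. They include LbMsrA (prot ID 253748), a methionine sulfoxide reductase, an enzyme that repairs oxidised methionine in proteins. LbMsrA gave 1036, 1252 and 1103 RPKM in early caps, 1182, 984 and 759.7 in medium caps and 304, 312 and 307 in late caps. Stipes gave 909, 948 and 677 RPKM in early stipes, 622, 624 and 948 in medium stipes and 229, 202 and 195 in late stipes. Medium and early libraries overlapped in both tissues, and late libraries were lower and close to each other. Prot ID 293625 has the domain of chloroperoxidases, haem enzymes that oxidise many substrates. Its levels were 441, 552 and 493 RPKM in early caps, 537, 711 and 522 in medium caps and 133, 143 and 136 in late caps. In stipes they were 438, 344 and 269.8 RPKM in early stipes, 378, 380.4 and 163 in medium stipes and 83.2, 79.1 and 82.04 in late stipes. Medium caps were as high as early caps, and medium stipe 3 was below the other medium stipes.

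The following 5 named members are among the 22 near early in both tissues, which had to fall from medium to late. All were called lower from medium to late in both tissues. Over all gene models tested, 5.81% were in caps and 9.39% in stipes, and nothing is read from these calls. Prot ID 618943, with an amine oxidase domain, fell 2.55-fold in caps and 2.82-fold in stipes by the ratio of the medium to the late mean. For 488302, with the fold of methyltransferases that use S-adenosylmethionine, the ratios were 3.55 and 5.57. For 615626, with a domain of unknown function (DUF4243), they were 2.64 and 2.99. The unannotated 637960, second by early level, gave 5.93 and 5.47, and 668035 gave 2.57 and 3.47. Of these 5, only 637960 had ratios above the medians of the 22 gene models in both tissues.

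Of transcription factors, 160 were tested in the list, of which 1.88% were called lower in both tissues (2.41% of all gene models tested), and 2 are members. Both are annotated as zinc-binding regulators, and 303095 is of the Zn2Cys6 family of fungal regulators. It gave 187, 145 and 185 RPKM in early caps, 59.4, 59.3 and 81.4 in medium caps and 27.8, 31.5 and 31.3 in late caps. The stipe libraries gave 110.5, 84.1 and 152 RPKM in early stipes, 94.2, 93.2 and 39.3 in medium stipes and 25.1, 36.8 and 33.6 in late stipes. Medium caps were below all early caps, whereas medium stipes 1 and 2 lay within the range of early stipes. The other, 620550, gave 86.2, 71.2 and 86.1 RPKM in early caps, 22.1, 22.6 and 42.3 in medium caps and 11.6, 11.1 and 10.1 in late caps, and in stipes 52.5, 38.6 and 68.95 RPKM in early stipes, 46.1, 48.5 and 15.5 in medium stipes and 12.96, 17.9 and 17.8 in late stipes. It likewise had medium caps below early caps, and medium stipes 1 and 2 within the range of early stipes. A major facilitator, 577732, is the 1 member among 465 transporters tested. It gave 302, 389 and 355 RPKM in early caps, 219, 329 and 237 in medium caps and 64.9, 69.9 and 68.5 in late caps, and in stipes 205, 156 and 82.5 RPKM in early stipes, 103, 103 and 55.5 in medium stipes and 28.3, 39.7 and 22.9 in late stipes. In both tissues late libraries were below all others. Of the lists for cell cycle and cytoskeleton (66 tested), chromatin (45), proteases (125), hydrophobins (3) and meiosis (11), none held a member, which is little to go by where 0.352% of all gene models tested are members, while protein kinases and lipid metabolism held 1 each and CAZymes 2. The 1 member in the list for translation is the phosphomevalonate kinase 246613, which entered by the name of a protein fold. Lists without a member can still hold falls in both tissues: 2 of the 3 hydrophobins and 5 of the 45 chromatin gene models (11.1%, against 2.41% of all tested) were called lower in late than in early caps and stipes. An annotation was at hand for 27 of the 58 and for 3397 of all 23130 gene models, as the annotation tables were available in part. Shares of a list and of all gene models rest on these unlike bases.

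The remaining annotated members had lower levels and are named here after their values were seen. Protein kinase 298006 had an early to late ratio of 3.55 in caps and 17.01 in stipes. For 294752, annotated as an activator of the proteasome, which degrades proteins, the ratios were 5.59 and 5.25. They were 3.71 and 5.19 for 709721, an oxidoreductase of the CAZyme family AA3_2, and 3.35 and 10.1 for 617261, an oxidoreductase that binds FAD. The lipase 332497 gave 3.69 and 3.03, and 451648, annotated with GTP binding, 4.48 and 3.62. The ratio in stipes was thus over 2 times that in caps for 298006 and 617261 among these 6.

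Of the gene models outside the groups above, 12 lay near early in medium caps and between in medium stipes, among them Lbphb, Lbphb2, 577732, 632191 and 617261. Another 6 lay between in caps and near early in stipes, among them 705940, 303095, 620550 and 294752. For 705940 this rests on medium stipe 3, with a place of 1.08, against 0.44 and 0.42 in medium stipes 1 and 2. Both medium means lay between early and late for 5, including 709721. For 630915 the medium cap mean lay near early and the medium stipe mean near late, and for 687124 the medium cap mean lay near late and the medium stipe mean between. Prot ID 630915 gave 45.5, 23.1 and 12.4 RPKM in medium caps and 10.5, 9.68 and 14.1 RPKM in medium stipes, ranges that overlap.

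Medium caps and medium stipes were the only groups that the choice did not use, and their difference was tested. Members were on the whole higher in medium caps: 46 of 58 by the means, with a median log2 fold change of 0.53, where all gene models tested had -0.01. Called higher in medium caps were 14 of 58 (24.1%), where 6.47% of all gene models tested were, and 13 were called with DESeq2. Lower in medium caps were 0 of 58 by edgeR, where 5.05% of all were, with 1 lower at an unadjusted p under 0.05 and 0 called by DESeq2. The shares over all gene models take in some with levels below those that the choice required. Shares at like levels were not computed. The calls rest on the spread shared by all 18 libraries: with only the 6 medium libraries in the fit, 1 of the 14 was called, prot ID 706368, and in a test against a log2 fold change of 1 none was. Without medium stipe 3, which also stood apart in Hsp20 gene models, 13 were called, 10 of them among the 14.

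The largest differences were those of gene models described above. Prot ID 475510 was higher in medium caps by a log2 fold change of 2.76 (SE 0.80, adjusted p = 0.0174, edgeR), which lost its call without medium cap 1. For 706368 the log2 fold change was 2.06 (SE 0.39, adjusted p = 0.00171, edgeR), and for the methyltransferase 483834 it was 2.04 (SE 0.36, adjusted p = 0.00119, edgeR). Lbphb2 differed by 1.64 on the log2 scale (SE 0.38, adjusted p = 0.00537, edgeR) and Lbphb by 1.40 (SE 0.32, adjusted p = 0.00506, edgeR). The transporter 577732 differed by 1.599 (SE 0.30, adjusted p = 0.00185, edgeR). The unannotated 399613 gave 72.1, 84.1 and 41.3 RPKM in medium caps and 24.6, 27.7 and 15.7 RPKM in medium stipes, a log2 fold change of 1.57 (SE 0.34, adjusted p = 0.00358, edgeR). The other 7 had log2 fold changes from 1.003 to 1.53, among them the secreted protein 330757 at 1.53, gene model 395836 next to Lbphb at 1.25 and the polyprenyl synthetase 632191 at 1.11. Some of these 7 calls were less firm. Of 25 alternatives, 629016 (1.003) was called in 6 and lost its call with DESeq2. Prot ID 455116 (1.23) was called in 17. It lost its call without either medium cap 1 or medium cap 2 or any one medium stipe, and with the near-alike libraries summed. Prot IDs 330757 and 395836 kept their calls with these libraries summed. The secreted protein 661527 (1.09) was called in 20, lost without medium cap 1, medium cap 2 or medium stipe 3, 703948 (1.20) in 22, lost without medium stipe 3, and 632191 in 22, lost without medium cap 2. The one member that was lower at an unadjusted p under 0.05, 687124, gave 12.8, 6.87 and 14.3 RPKM in medium caps and 16.2, 17.8 and 20.9 RPKM in medium stipes.

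**Figure D5:**
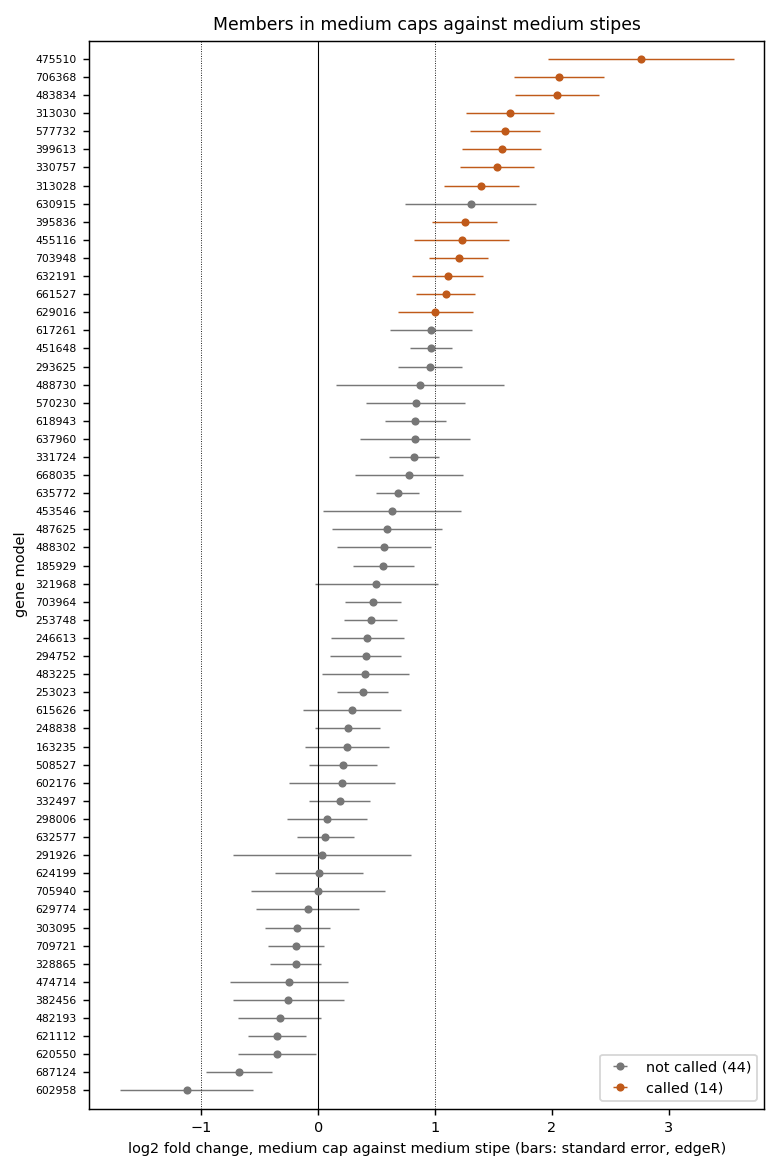
Log2 fold change of the 58 gene models in medium caps against medium stipes, with the standard error of the edgeR fit as bars. Orange points are the 14 called (log2 fold change above 1 in size and adjusted p under 0.05), from 1.003 to 2.76, and dotted lines mark log2 fold changes of -1 and 1.

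Early and late samples gave the tissue difference in libraries that the choice used, and its counts are a description. In early samples 6 members were called higher in caps (2.18% of all gene models tested) and 4 lower (2.98%). By the RPKM means 40 of 58 were higher in early caps. RPKM itself was higher in early caps over all gene models tested, by a median log2 difference of 0.13, against 0.02 with TMM. In edgeR the median log2 fold change of the members was 0.24, where all gene models tested had 0.02. Prot ID 706368 was 8.58 times as high in early caps as in early stipes, and 453546 4.02 times as high in early stipes. These counts of called members also rest on single libraries, with 10 in all and 2 without early cap 2, 3 without early stipe 2, and 5 without either early cap 3 or early stipe 3. In late samples 15 of 58 (25.9%) were called higher in caps, where 14.8% of all gene models tested were. By edgeR 0 were called lower in late caps, where 9.55% of all were, and 1 was with DESeq2. The choice held the late means of both tissues within 2.5-fold. Without late stipe 2, 8 members were called. Of the 14 called higher in medium caps, 4 were also called higher in early caps and 6 in late caps.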

How the data were processed

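RNA was sequenced from caps and stipes at 3 stages, 3 libraries per group, with a stranded kit per the labels. After trimming, the authors aligned the reads in CLC Genomics Workbench to the *L. bicolor* v2 reference transcripts allowing several hits for a read, and deposited for each gene model a read count without normalization and the RPKM value. Whether unique or total reads were counted, and whether strand was used, is not given in the sources used here. If total reads were counted, near-identical genes share reads. The submitters' processing notes name DESeq2.

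The 58 gene models were found from the RPKM means. The members and the gene lists were chosen with earlier results of these data known, and the words of 3 lists (transporters, transcription factors, cell cycle) were corrected after their members were seen. Counts were tested in R 4.3.3 with edgeR 4.0.16 (filterByExpr, TMM, quasi-likelihood test, a mean for each of 6 groups, all 18 libraries), with adjustment over 16485 gene models. DESeq2 1.42.0, RLE scaling, no filter, a replicate block, glmTreat, only the groups compared, summed near-alike libraries (medium stipes 1 and 2, late caps 2 and 3) and each library left out were alternatives. For the choice of members, other thresholds, medians and TMM-scaled values were. The fit was also run on simulated counts with independent replicates and the same spread for all gene models. That run does not bear on the near-alike libraries or on medium stipe 3. Named gene models are the 12 with the highest early mean, the 6 with the largest smaller ratio of both tissues, the 6 with the largest called difference between medium caps and medium stipes, the first 15 with an annotation by early mean, and those next to a threshold. Others were named after their values were seen. Annotations come from the parts of the supplementary tables at hand, and RefSeq (assembly V1.0) matched 18 of the 58 by number, which gave symbols for 3. Its gene order was used to name neighbours, and its coordinates are not given, as the build differs. Replicate numbers did not pair caps and stipes.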

Additional observations from a re-analysis of the deposited data

How the results depend on the processing

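The count of gene models that met the choice was 58, and 278 with an early mean at least 2 times the late mean, 29 with at least 4 times, and 89 with no bound on the ratio of the late means. With the median of the replicates in place of the mean it was 58, of which 47 were shared. With each early or late library left out it was 50 to 67. In the test against a log2 fold change of 1 (glmTreat), members called fell from 14 to 0 in medium caps against medium stipes, from 10 to 1 in early caps against early stipes, from 15 to 0 in late caps against late stipes, from 10 to 1 and from 18 to 4 between early and medium caps and stipes, from 42 to 22 and from 40 to 17 between medium and late, and from 58 to 34 between early and late caps. With only the groups compared in the fit, 1 was called in medium caps against medium stipes, 3 from early to medium caps and 4 from early to medium stipes. With near-alike libraries summed, 6 were called between early and medium stipes. These fits use fewer libraries or a stricter hypothesis, and other causes were not tested.

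With each library left out, counts ranged from 10 to 18 for medium caps against medium stipes, 2 to 13 for early caps against early stipes, 8 to 16 for late caps against late stipes, 2 to 13 and 8 to 22 for early to medium caps and stipes, 38 to 43 for medium to late in either tissue, 53 to 58 for early to late caps and 54 to 58 for stipes. The median place of medium means kept within 0.72 to 0.78 in caps and 0.59 to 0.71 in stipes. With the replicate block, 15 were called in medium caps against medium stipes, 14 of them as before, and no count moved by over 1.5 times. Same-numbered caps and stipes did not deviate together: the correlations were -0.28, 0.03 and 0.16 for early, -0.48, -0.02 and -0.40 for medium, and -0.06, -0.04 and 0.01 for late samples. Between caps and stipes of a stage with different numbers, correlations ranged from -0.47 (medium cap 1 with medium stipe 2) to 0.54 (medium cap 1 with medium stipe 3). The labels do not say that numbers pair samples, and whether samples pair under other numbers was not tested.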
